A study of Mus musculus with 2 samples.

Results

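The DNA replication and mitosis genes described here are 44 genes of the cell cycle, chosen by name, of the 28233 gene symbols on the array. All 44 were found through the gene name of their probes, on 57 probes. Of these genes, 17 act in DNA replication (origin licensing, the fork, deoxynucleotide supply, Mybl2 and Brca1) and 27 act in mitosis. RNA came from immortalized mouse embryonic fibroblasts (MEF) on a C57BL/6 x B6:129 Ola background, all of which carry Rosa26ERT2 Cre, a Cre recombinase that tamoxifen activates, and THOC5 (flox/flox). THOC5 is a subunit of the THO complex, which acts in mRNA processing and export. Control cells, labelled wildtype, had no tamoxifen, and THOC5 knockdown cells had been treated with tamoxifen for 2 days per the labels (the methods give a shorter exposure followed by growth medium). Both were starved of serum, and 1 dual-color Agilent array was run for each. Cy3 (green) carried the RNA of unstimulated cells and Cy5 (red) that of cells given fetal calf serum (FCS) for 1 h. Each condition has a single array and dyes were not exchanged, so no value below has a replicate check, and no test between conditions was made. The control cells had no tamoxifen, so an effect of the drug or of Cre, of the culture and of the slide position cannot be told apart from that of losing THOC5.

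Normal fibroblasts without serum leave the cell cycle and stop transcribing most of these genes. When serum returns, growth factor receptors induce the immediate early genes first. Cyclin D and its kinases later inactivate the retinoblastoma family proteins, and E2F factors then switch on the replication genes near the start of S phase. The mitotic genes follow in G2, when the MuvB core with Mybl2 and Foxm1 takes the place of the repressive DREAM complex at their promoters. DREAM and MuvB bind a short element called the CHR (cell cycle genes homology region), and the factor NF-Y binds CCAAT boxes beside it. At 1 h after serum, starved fibroblasts are as a rule many hours away from S phase.

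The sequences are shown because CHR and E2F elements were found at different shares in the promoters of the mitosis genes and the replication genes, whereas CCAAT and GGCGG were common in both. RefSeq promoters (GRCm38.p6, 250 bases before to 50 after the start of transcription) were found for 37 of the 44 genes, as 40 promoters. A CHR (TTTGAA or TTCGAA, either strand) stood in 78.3% of the 23 promoters of mitosis genes, in 11.8% of the 17 promoters of replication genes and in 19.2% of all 32851 promoters. An E2F element (TTTCCCGC, TTTGGCGC, TTTCGCGC or TTTGCCGC, either strand) stood in 41.2% of the replication promoters, in 4.35% of the mitosis promoters and in 2.26% of all. CCAAT, on either strand, stood in 70.6% of the replication promoters, 87.0% of the mitosis promoters and 37.4% of all. Every mitosis promoter with a CHR also held a CCAAT box, 18 of 23, whereas 7.52% of all promoters held both. The letters GGCGG, close to the CDE element that can lie before a CHR, were in 90.0% of the members' promoters and 48.8% of all, and 1 of the 13 E2F matches overlapped them. These are matches of letters in a window, with no test, and not binding measured in these cells.

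The 160 bases before the start are printed 5′ to 3′ for 3 mitosis genes, with CHR matches in capitals. Cdk1, the kinase that drives entry into mitosis (chr10:69352913-69353072, minus strand), has CHR matches that begin at -71 and -15. Cdc20, an activator of the anaphase-promoting complex (chr4:118437344-118437503, minus strand), has one at -18, and Top2a, the topoisomerase that untangles sister chromosomes (chr11:99024190-99024349, minus strand), has matches at -140, -120 and -23 in this stretch.
Cdk1: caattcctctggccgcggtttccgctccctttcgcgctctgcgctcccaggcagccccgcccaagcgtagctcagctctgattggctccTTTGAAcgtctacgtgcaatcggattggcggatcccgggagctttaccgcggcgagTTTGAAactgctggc
Cdc20: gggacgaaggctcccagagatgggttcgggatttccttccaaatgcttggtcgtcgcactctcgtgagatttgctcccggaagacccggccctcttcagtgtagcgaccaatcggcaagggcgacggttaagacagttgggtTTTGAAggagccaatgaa
Top2a: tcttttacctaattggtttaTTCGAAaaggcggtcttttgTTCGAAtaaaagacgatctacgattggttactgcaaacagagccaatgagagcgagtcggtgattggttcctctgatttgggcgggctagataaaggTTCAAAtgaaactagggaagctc

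For 3 licensing genes among the replication genes, E2F matches are in capitals over the same 160 bases. Mcm6, a subunit of the MCM helicase (chr1:128359706-128359865, minus strand), has matches that begin at -110, -106 and -47, and the first pair overlap. Mcm5, another subunit (chr8:75109349-75109508, plus strand), has an overlapping pair at -153 and -149, and Cdc6, which loads the helicase on origins (chr11:98907991-98908150, plus strand), has a match at -138.
Mcm6: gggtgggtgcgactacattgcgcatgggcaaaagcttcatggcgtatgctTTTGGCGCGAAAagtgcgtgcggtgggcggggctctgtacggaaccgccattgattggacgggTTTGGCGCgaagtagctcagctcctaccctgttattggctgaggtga
Mcm5: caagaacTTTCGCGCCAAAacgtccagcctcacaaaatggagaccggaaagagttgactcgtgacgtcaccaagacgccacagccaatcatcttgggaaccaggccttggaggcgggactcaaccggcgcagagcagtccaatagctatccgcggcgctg
Cdc6: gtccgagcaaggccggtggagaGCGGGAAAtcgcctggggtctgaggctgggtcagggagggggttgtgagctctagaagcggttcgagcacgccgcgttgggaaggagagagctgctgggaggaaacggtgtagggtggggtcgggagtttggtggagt

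Nearly all of these genes gave signals far above background in the starved cells. All 44 were well above background in 3 channels and 43 in Cy5 of the knockdown array. A signal above 1000 in all 4 channels was given by 34 of them, and by 7391 of the 28233 genes on the array. Signals of different probes are not levels per RNA length, so they do not rank the genes. The dimmest was Cenpf, a large kinetochore protein, whose signals were 14.0 and 15.4 on the control array and 14.4 and 11.8 on the knockdown array. In bulk RNA, fewer cycling cells and less RNA per cell cannot be told apart.

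Thoc5 itself had signals of 4808 and 3047 on the control array and of 545.6 and 455.1 on the knockdown array, which after scaling was 7.10-fold lower unstimulated and 5.39-fold lower with serum. Whether its probe lies within the deleted part is not given in the sources used here. All 10 listed immediate early genes were over 1.5-fold higher with serum on both arrays, with median log2 ratios of 3.25 and 3.30. Of all genes, 11.7% and 4.27% passed in either direction. The paper lists all 10 among the genes it called serum-induced on this control array, and outside its group most reduced without THOC5. Their rise was therefore fixed in advance and does not measure the response of other early genes. Of 13 fibroblast markers, 12 were above a signal of 1000 in all 4 channels, with a summed signal of 433340 to 603940. No epithelial (6), blood cell (7) or endothelial (4) marker on the array reached 1000 in all 4, and their sums ran from 176.6 to 273.8, from 282.8 to 356.6 and from 886.6 to 1136. The sums are over different probes, so their sizes are not compared between lists. Between 63.6% and 65.7% of genes were well above background in a channel.

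In control cells, 1 h of serum left the set near its starting level. No member differed by 1.5-fold between Cy5 and Cy3 (a log2 ratio of 0.58), where 11.7% of the 17746 genes measured on this array did. The members' median log2 ratio was -0.02, the same as the -0.02 of all genes, and single members ran from -0.38 (Mcm7) to 0.35 (Kif23). Below 0 lay 25 of the 44 members, against 53% of all genes. Past 1.2-fold, a limit chosen after the values were seen, 3 members were lower and 2 higher, against 19.8% and 17.8% of all genes.

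On the knockdown array the set lay lower after serum than before it. The median log2 ratio was -0.16 (1.11-fold lower with serum) over the 43 measured members, against -0.01 for all 17815 genes. It was below 0 in 39 of 43 members, against 52.7% of all genes. Again no member passed 1.5-fold, where 4.27% of all genes did. Past 1.2-fold, 11 members were lower and none was higher, against 11.1% and 12.2% of all genes. The 4 members above 0 were Kif23 and Cdk1, both at 0.08, Aurka at 0.02 and Tpx2 at 0.0023.

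The shift had the same direction at high signals. Among genes with every signal above 1000, a filter added after the data were seen, 30 of 34 members (88.2%) were below 0 on the knockdown array, against 56.9% of 7391 genes. Probes printed as 10 spots give the error within an array: over such probes the log2 ratio varied from spot to spot with a median SD of 0.02 on both arrays, at a mean signal above 200. Bub1, the spindle checkpoint kinase, is read by such a probe, and 9 of its spots passed the software's outlier flags on each array. Its log2 ratio was -0.09 ± 0.02 (SD, n = 9 spots) on the control array and -0.13 ± 0.02 (SD, n = 9 spots) on the knockdown array. This spread covers spots of 1 hybridization and neither the labelling nor the culture.

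**Figure D1:**
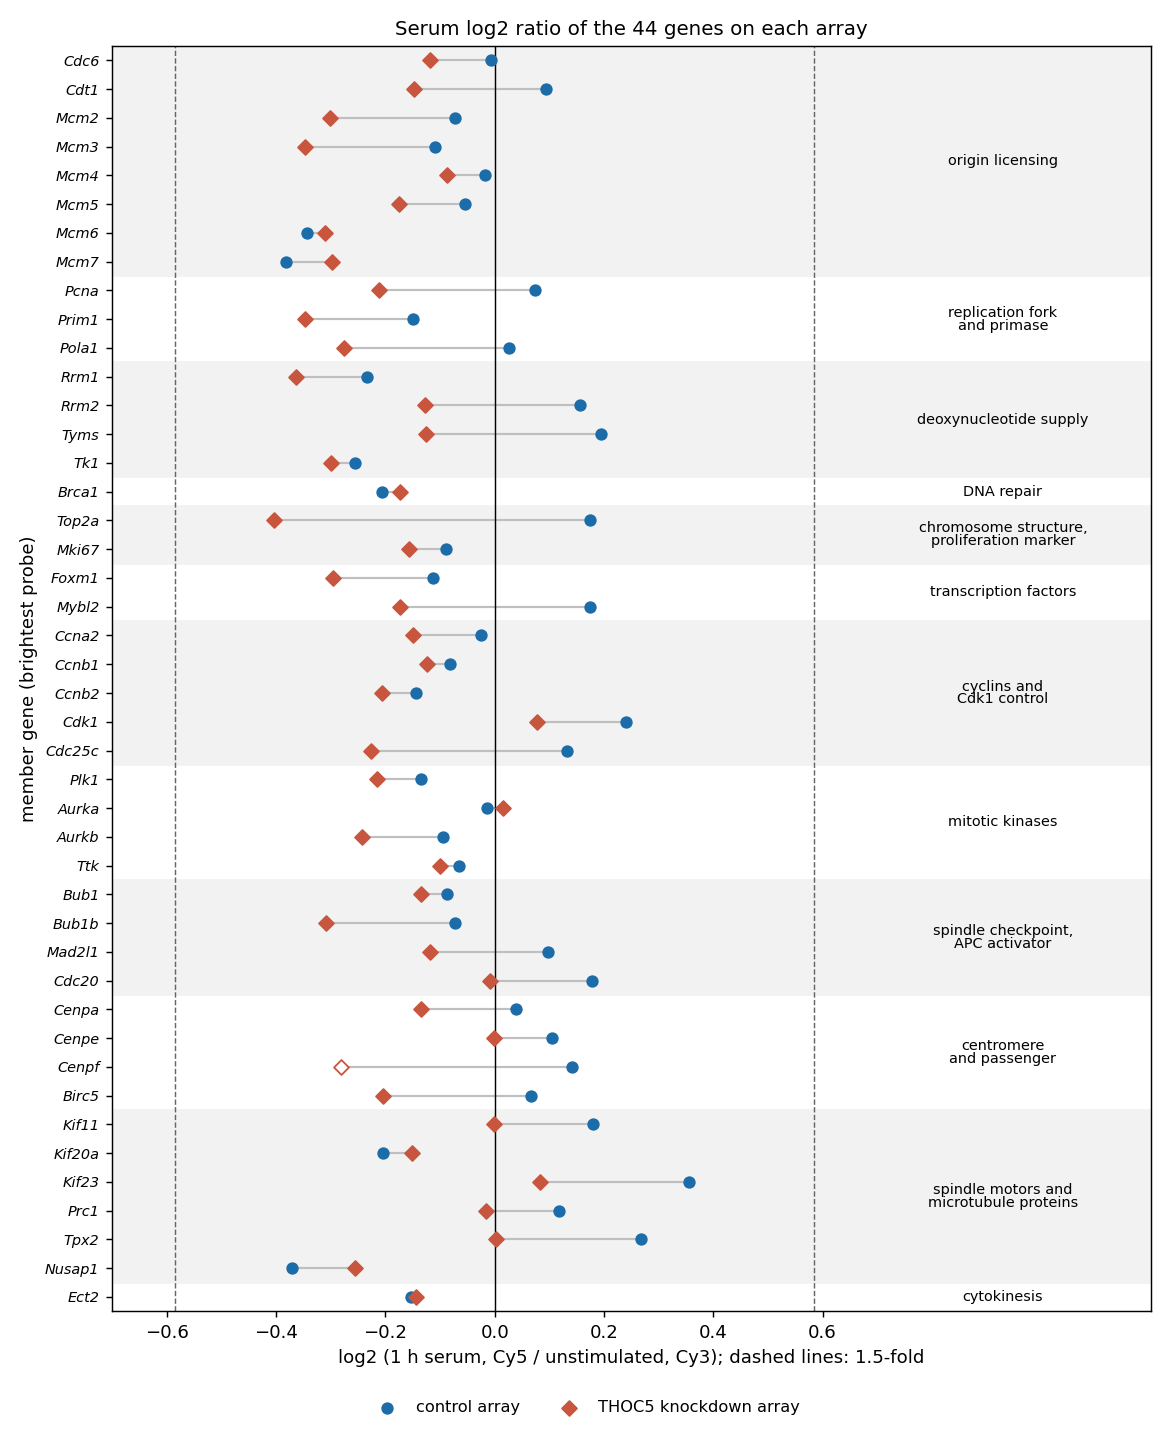
Log2 ratio of the Cy5 signal (1 h serum) over the Cy3 signal (unstimulated) of each of the 44 genes, grouped by role, on the control array (circles) and the THOC5 knockdown array (diamonds). All points lie within the dashed lines at 1.5-fold, and 39 of the 43 measured diamonds lie below 0 against 25 of 44 circles. The open diamond (Cenpf) has a Cy5 signal not well above background.

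Between the arrays, the set was slightly higher relative to all genes in unstimulated knockdown cells than in unstimulated control cells. Its signals themselves were not: before scaling the median log2 level was -0.12, beside -0.26 for all genes. After scaling of the arrays, the median log2 level in knockdown over control was 0.16 (1.12-fold) over 44 members, against -0.0013 for all 17716 genes. It was above 0 in 39 of 44 members, against 49.7% of all genes. No member passed 1.5-fold, where 10% of all genes did. Past 1.2-fold, 13 members were higher and 1 (Cdc6) was lower, against 16.7% and 17.1% of all genes.

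After 1 h of serum the set showed no such shift. The median log2 level was 0.01 over 43 members, against -0.0019 for all 17439 genes, and 24 of 43 members were above 0, against 49.7% of all genes. No member passed 1.5-fold, where 11.5% of all genes did. Past 1.2-fold, 4 members were higher (Brca1, Aurkb, Foxm1 and Bub1) and 1 (Cdc6) was lower, against 18.9% and 18.2% of all genes. The share of all genes past 1.5-fold depends on brightness. With every signal required to be above 200 it was 8.54% and 2.13% for the serum ratio on the control and the knockdown array, and 5.27% and 6.23% for the unstimulated and stimulated level, beside 0 of 40 members in each. The comparisons are linked by arithmetic: the unstimulated minus the stimulated level difference of a gene equals its control minus its knockdown serum ratio. The higher unstimulated level and the lower serum ratio on the knockdown array are therefore largely 1 observation and not separate ones.

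**Figure D2:**
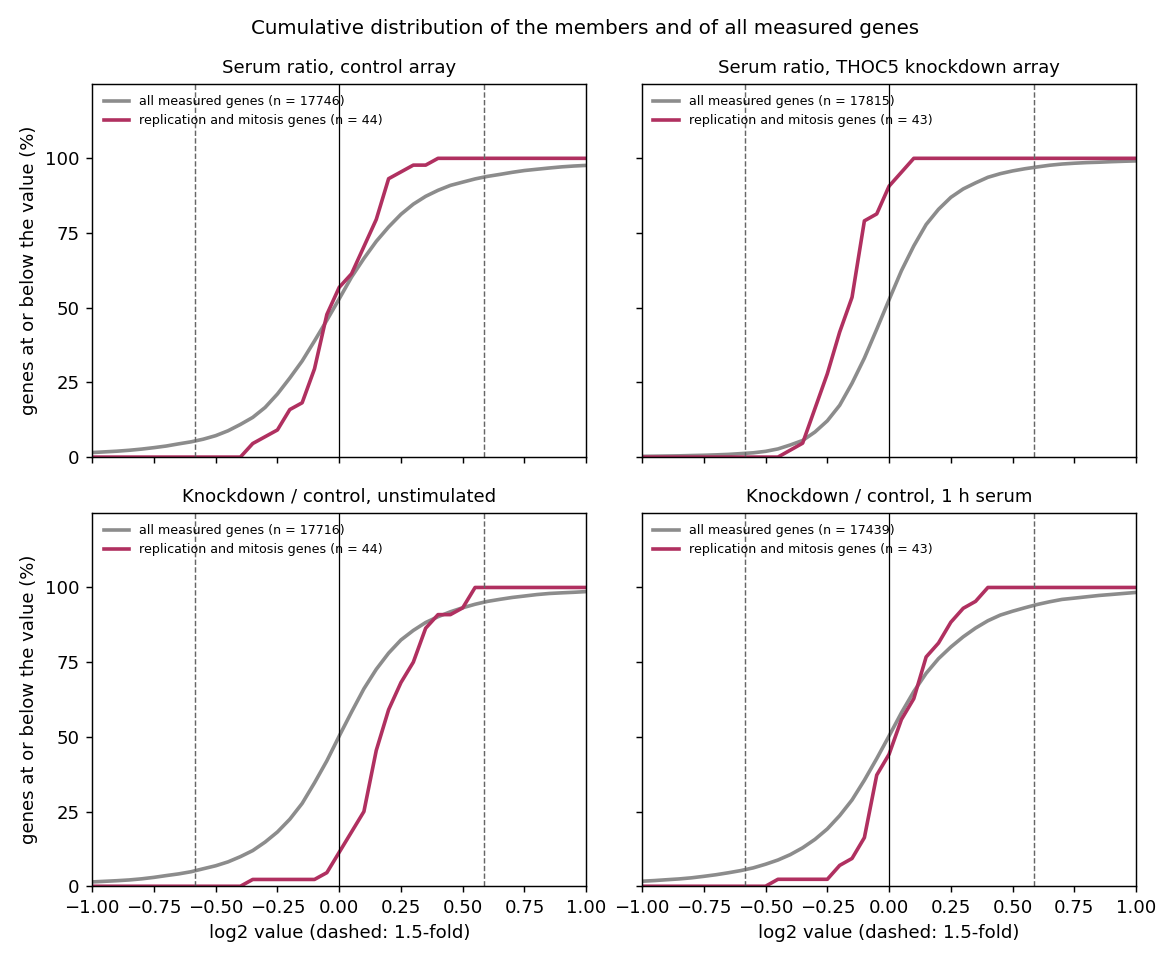
Cumulative percentage of genes (vertical axis) at or below each log2 value (horizontal axis), for the members and for all measured genes, in each of the 4 comparisons. The members' curve is steeper than that of all genes in every panel. It is displaced to the left for the serum ratio on the knockdown array (median -0.16) and to the right for the unstimulated level (median 0.16).

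**Figure D3:**
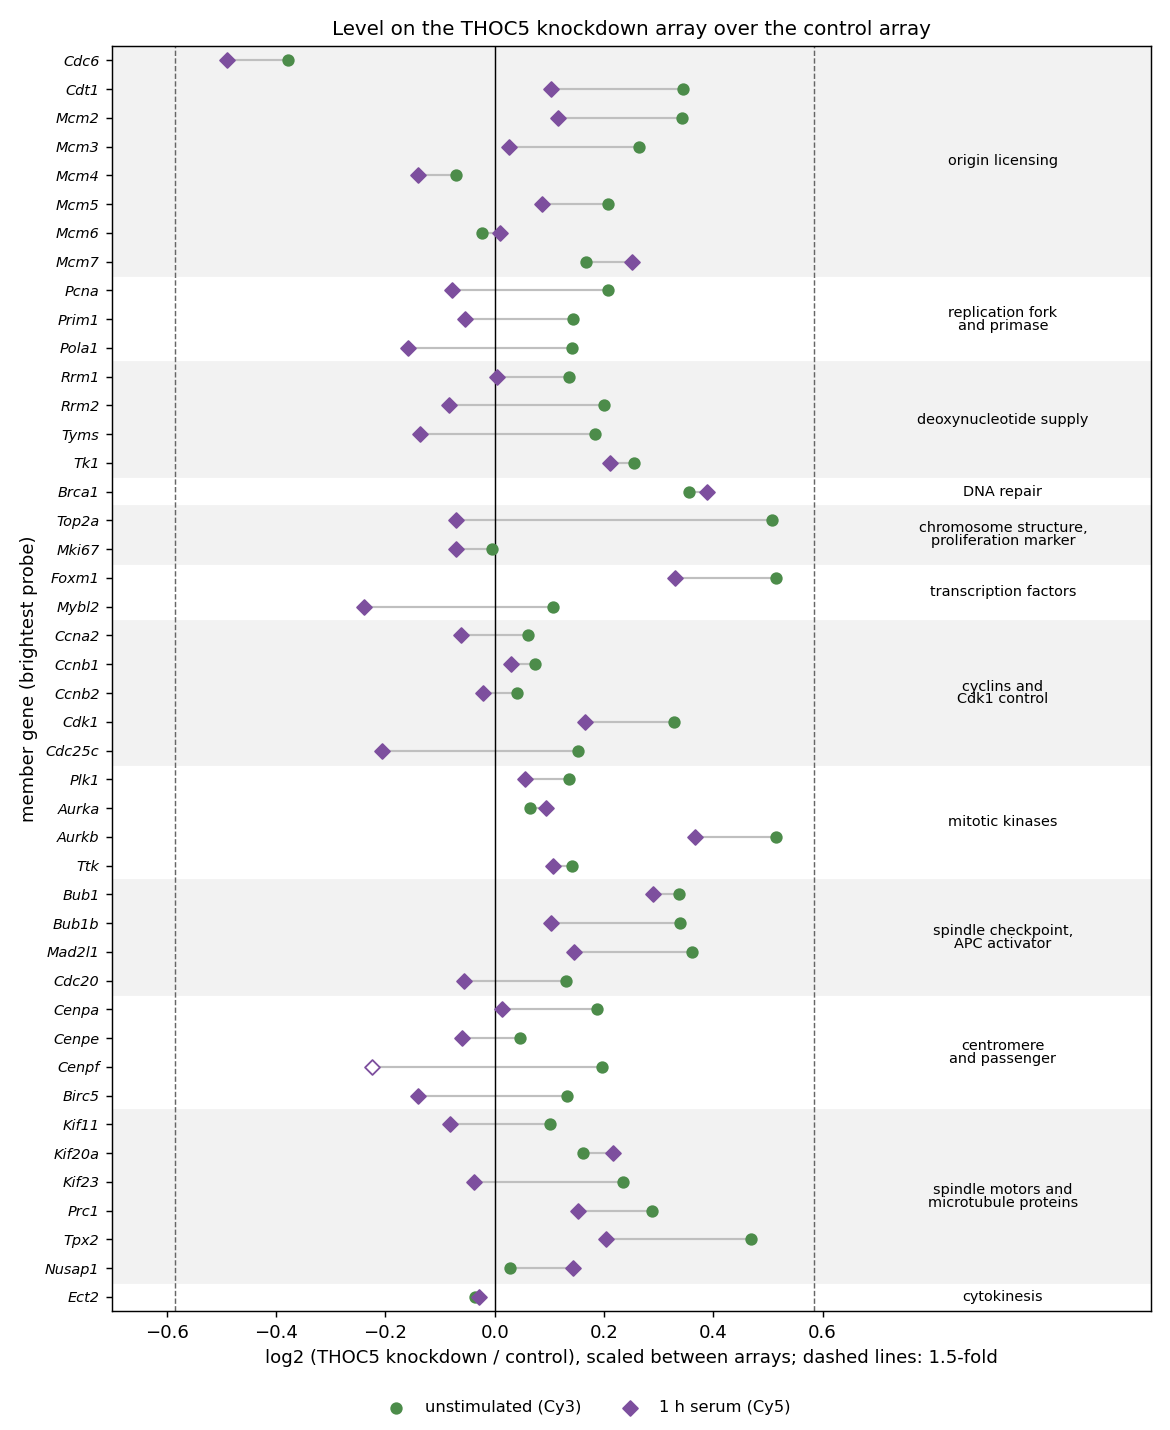
Log2 level on the THOC5 knockdown array over the control array for each gene, scaled between arrays, in unstimulated cells (Cy3, circles) and after 1 h of serum (Cy5, diamonds). The circles of 39 of 44 genes lie above 0, Cdc6 lies lowest in both channels, and no point passes the dashed lines at 1.5-fold. The open diamond marks Cenpf, not well above background in Cy5 of the knockdown array.

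The licensing genes load the replicative helicase on origins in G1. Their 8 members had a median log2 serum ratio of -0.06 in control and -0.24 in knockdown cells, where all 8 were below 0. Mcm2, a helicase subunit, had signals of 2860 and 2720 (unstimulated and with serum) on the control array and of 2930 and 2380 on the knockdown array. Its log2 serum ratio was -0.07 in control and -0.30 in knockdown cells, and its level in knockdown over control was 0.34 unstimulated and 0.12 with serum. The knockdown array was dimmer across all genes, by a median log2 of -0.26 in both channels before scaling, so raw signals that look alike come out higher after it.

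The subunits of the helicase, which work as 1 ring, did not share a serum ratio in control cells. Mcm6 and Mcm7 were lower with serum there (log2 -0.34 and -0.38), and Mcm3, Mcm5, Mcm2 and Mcm4 ran from -0.11 to -0.02. Mcm6 read 37900 and 29900 on the control array and 31200 and 25200 on the knockdown array. On the knockdown array, Mcm2, Mcm3, Mcm6 and Mcm7 lay together between -0.35 and -0.30, Mcm5 was at -0.18 and Mcm4 at -0.09. Mcm4 (-0.07 unstimulated and -0.14 with serum) and Mcm6 (-0.02 and 0.01) had no higher level in knockdown cells, whereas Mcm3 was at 0.26, Mcm5 at 0.21 and Mcm7 at 0.17 unstimulated.

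The loading factors themselves differed in direction. Cdc6 read 921 and 917 on the control array and 584 and 538 on the knockdown array, a log2 level of -0.38 unstimulated and -0.49 with serum, the lowest of all members in both channels. Its partner Cdt1 read 21200 and 22600 on the control array and 22300 and 20100 on the knockdown array, a log2 level of 0.35 unstimulated and 0.10 with serum. A second Cdc6 probe gave smaller differences, of -0.13 and -0.15.

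At the fork, Pcna, the sliding clamp of the polymerases, read 27100 and 28600 on the control array and 25800 and 22300 on the knockdown array. Its log2 serum ratio was 0.07 in control and -0.21 in knockdown cells, and its level was 0.21 unstimulated and -0.08 with serum. Prim1, the catalytic primase subunit, had serum ratios of -0.15 and -0.35. For Pola1, the polymerase that extends its primers, they were 0.03 and -0.28. All 3 fork genes were thus above 0 in level without serum (0.14 to 0.21) and below 0 with it (-0.16 to -0.05).

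Of the 4 genes that supply deoxynucleotides, both ribonucleotide reductase subunits were measured. Rrm1, the large subunit, had serum ratios of -0.23 in control and -0.36 in knockdown cells. Rrm2, the small subunit whose level follows S phase, had 0.16 and -0.13. Tyms (thymidylate synthase) had 0.20 and -0.12, and Tk1 (thymidine kinase) had -0.26 and -0.30. The genes therefore differed in sign on the control array and were all below 0 on the knockdown array, with unstimulated levels from 0.14 (Rrm1) to 0.26 (Tk1). Brca1, a repair gene that E2F factors control, was dim, with signals of 46.3 and 40.1 on the control array and of 53.3 and 47.3 on the knockdown array. Its log2 level was 0.36 unstimulated and 0.39 with serum.

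The largest change of serum ratio between the arrays was that of Top2a. It read 3530 and 3990 on the control array and 3980 and 3010 on the knockdown array, so serum was the higher channel on one array and the lower on the other. The log2 serum ratio was 0.17 in control and -0.40 in knockdown cells, a difference of -0.58. Its level was 0.51 unstimulated and -0.07 with serum. Mki67, the proliferation marker that coats mitotic chromosomes, read 8700 and 8180 on the control array and 6920 and 6210 on the knockdown array. Its serum ratios were -0.09 and -0.16 and its levels -0.0044 and -0.07. A second Mki67 probe, which read 5800 and 5030 in unstimulated control and knockdown cells, gave serum ratios of 0.03 and -0.07 and levels of 0.11 and 0.0058.

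Foxm1 and Mybl2, the transcription factors of the set, were each measured by 2 probes. Mybl2 is an E2F target that was counted with the replication genes, although it acts on the mitotic genes through MuvB. Foxm1, which drives G2 and M genes with MuvB, read 878 and 813 on the control array and 1030 and 837 on the knockdown array. Its log2 level was 0.51 unstimulated and 0.33 with serum, and a dim probe (54.4 unstimulated in control) gave 0.42 and 0.0034. For Mybl2, the MuvB partner, the probe with the higher mean signal over the 4 channels gave serum ratios of 0.17 and -0.17 and levels of 0.11 and -0.24. Its other probe, read at 3490 and 3590 on the control array and at 5140 and 3870 on the knockdown array, gave levels of 0.88 (1.85-fold) unstimulated and 0.43 with serum. It was the only member probe more than 1.5-fold higher in level, and it was not the probe used for the gene, although it was the brighter of the pair on the knockdown array.

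Among the cyclins, Ccnb1, the cyclin that activates Cdk1 in mitosis, read 7830 and 7400 on the control array and 6570 and 6030 on the knockdown array. Its log2 serum ratios were -0.08 and -0.12 and its levels 0.07 and 0.03. The other Ccnb1 probes, dimmer at 1320 and 982 in unstimulated control cells, gave control serum ratios of 0.24 and 0.23 and unstimulated levels of 0.39 and 0.37, so the values of this gene depend on the probe. Ccnb2, the related B cyclin, had serum ratios of -0.14 and -0.21 and levels of 0.04 and -0.02. Ccna2, the cyclin A of S phase and G2, had serum ratios of -0.03 and -0.15 and levels of 0.06 and -0.06. Cdk1 read 4710 and 5570 on the control array and 4740 and 5000 on the knockdown array, with serum ratios of 0.24 and 0.08 and levels of 0.33 and 0.17. Cdc25c, the phosphatase that activates Cdk1, had serum ratios of 0.13 and -0.23 and levels of 0.15 and -0.21.

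Among the mitotic kinases, Aurkb, the kinase of the chromosomal passenger complex, had an unstimulated level that could not be told from those of Foxm1 and Top2a, the other two members above 0.50 on the log2 scale. It read 273 and 256 on the control array and 335 and 283 on the knockdown array, a log2 level of 0.52 unstimulated and 0.37 with serum, and its serum ratios were -0.09 and -0.24. Its relative Aurka, the centrosomal Aurora kinase, was 0.06 and 0.09, and its serum ratio was near 0 on both arrays (-0.01 and 0.02). Plk1, a kinase of mitotic entry and exit, had levels of 0.14 and 0.05, and Ttk, the checkpoint kinase Mps1, had 0.14 and 0.11.

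The spindle checkpoint genes, which delay anaphase until chromosomes are attached, had the highest median unstimulated level among roles with over 2 members, at 0.34. Bub1 was at 0.34, Bub1b at 0.34 and Mad2l1 at 0.36, whereas Cdc20, the activator they restrain, was at 0.13. With serum the levels were 0.29, 0.10, 0.14 and -0.06 in the same order. The serum ratio of Bub1b was -0.07 in control and -0.31 in knockdown cells, that of Mad2l1 was 0.10 and -0.12, and that of Cdc20 was 0.18 and -0.01.

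Of the centromere and passenger genes, Cenpa, Cenpe, Cenpf and Birc5 had small positive serum ratios in control cells, and Aurkb (described above) a small negative one. Those of Cenpa, Cenpe and Birc5 were below the median difference between probes of the same gene on that array (0.13). Cenpf was the dimmest member, so none of these signs is firm. Cenpa, the centromeric histone, had serum ratios of 0.04 and -0.13, and Cenpe, a kinetochore motor, had 0.11 and -0.00088. Birc5 (survivin), a passenger subunit beside Aurkb, had 0.07 and -0.21, and its levels were 0.13 and -0.14. For Cenpf the knockdown Cy5 signal was not well above background, so no knockdown serum ratio was kept for this gene. Its control serum ratio was 0.14 and its unstimulated level 0.20.

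The 6 spindle motors and microtubule proteins spanned nearly the whole range of control serum ratios of the set. Kif23, the motor of the central spindle, had 0.35 in control and 0.08 in knockdown cells, and Nusap1, a protein that bundles spindle microtubules, had -0.37 and -0.26. Tpx2, which activates Aurka on the spindle, read 2810 and 3390 on the control array and 3110 in both channels of the knockdown array. Its serum ratio was therefore 0.27 in control and 0.0023 in knockdown cells, with levels of 0.47 and 0.20. Kif11, the motor that separates spindle poles, had serum ratios of 0.18 and -0.0020, and Prc1, which crosslinks midzone microtubules, had 0.12 and -0.02. Kif20a, a motor of cytokinesis, had -0.21 and -0.15, and Ect2, the exchange factor that starts furrow formation, had -0.15 and -0.14, with levels of -0.04 and -0.03.

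Across the 43 members measured on both arrays, Pearson's r between the control and the knockdown serum ratio was 0.61 and Spearman's rho 0.61, against 0.67 and 0.53 across 17199 genes. Both arrays share the probes and the dye orientation, so a dye bias of a probe enters both ratios, and genes are not independent replicates. The knockdown serum ratio was the lower of the pair in 36 of 43 members, with a median difference of -0.15, against 48.8% of all genes and a median of 0.0075. The replication genes had a median difference of -0.20 (14 of 17 lower) and the mitosis genes one of -0.14 (22 of 26 lower). All 17 replication genes were below 0 on the knockdown array (median -0.21), as were 22 of 26 mitosis genes (median -0.14), against 52.7% of all genes. The median unstimulated levels were 0.18 and 0.15.

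For 9 members with 2 or 3 probes (22 probes in all), the probes bear on how firmly a single gene can be read. The serum ratio of a gene differed between its probes by a median of 0.13 on the control array and 0.23 on the knockdown array, with opposite signs in 4 and 2 of the 9 genes. Levels between arrays differed more, by a median of 0.31 unstimulated and 0.34 with serum, and had opposite signs in 4 and 5 of the 9 genes.

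Birc5 had the narrowest range of unstimulated level among these 9 genes, from 0.13 to 0.20 on 3 probes placed at chr11:117711112-117711171, chr11:117714057-117714116 and chr11:117716978-117717037 (mm9). The probes of Ccnb1 gave 0.07 to 0.39. Those of Cdk1 gave 0.33 on the brightest, 0.58 on one that overlaps it (chr10:68801053-68801112 against chr10:68801072-68801131, mm9) and -0.33 on a dim one that read 27.4 in unstimulated control cells. Those of Mad2l1 gave 0.36 on the brightest and -0.38 and -0.20 on others that read 265 and 235.

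Tpx2 showed the widest gap. Its probes gave nearly the same serum ratios, 0.27 and 0.28 in control and 0.0023 and 0.02 in knockdown cells, but opposite levels. The brighter probe (chr2:152719476-152719535, mm9) was at 0.47 unstimulated and 0.20 with serum. The dimmer one (chr2:152720285-152720344, mm9) read 171 and 207 on the control array, and both channels of the knockdown array were dimmer still (105 in Cy3). Its levels were -0.51 and -0.76, which made it the only member probe more than 1.5-fold lower (1.70-fold, with serum). The Mybl2 probes lay at chr2:162909345-162909404 and chr2:162910364-162910423 (mm9), and the one farther along the plus strand was the higher in level.

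**Figure D4:**
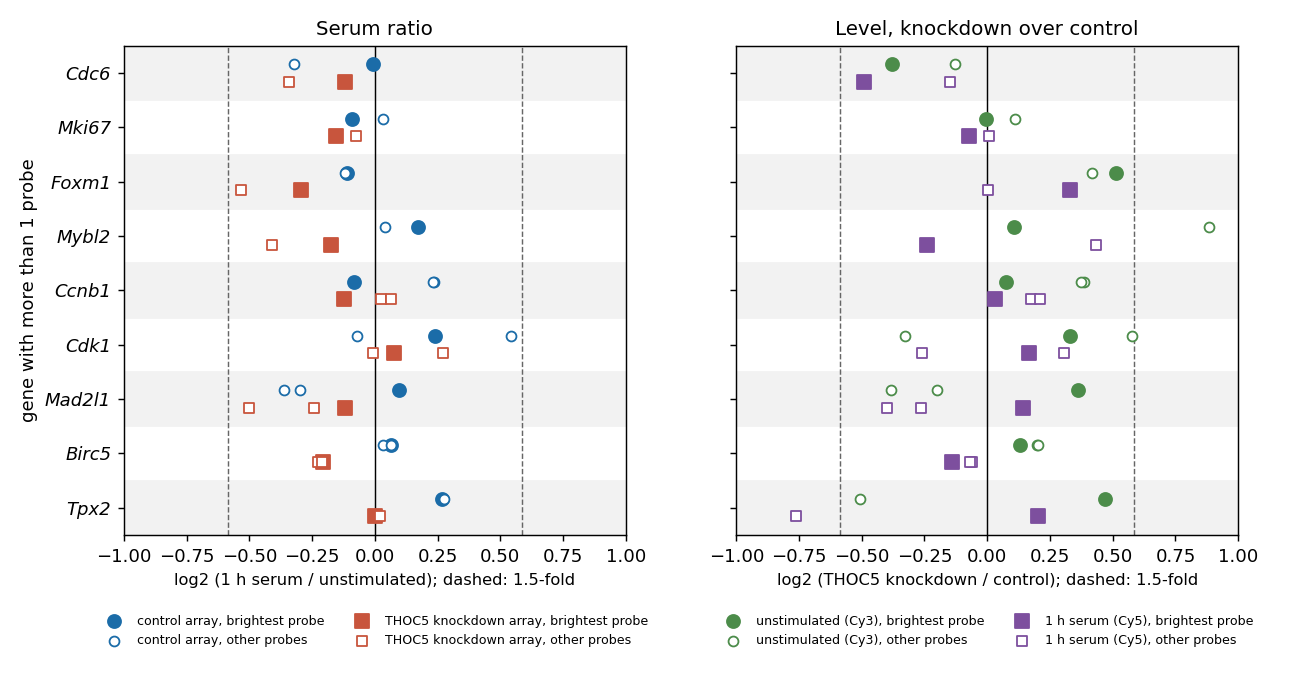
Log2 serum ratio (left) and log2 level in THOC5 knockdown over control (right) of every probe of the 9 genes with more than 1 probe. Filled symbols are the brightest probe, used for the gene, and open symbols its other probes. Probes of Birc5 lie together in both panels, whereas those of Tpx2 agree on the left and lie on opposite sides of 0 on the right.

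Genes of the same processes outside the set were counted in the same way. Of 46 further replication genes measured, none was over 1.5-fold lower and 1 was higher with serum in control cells (Ung, the uracil glycosylase, at 0.66). Of all genes 11.7% passed there in either direction. None of the 46 passed on the knockdown array, where 4.27% of all genes did. Their median log2 serum ratio was -0.05 in control and -0.19 in knockdown cells, where 42 of 46 were below 0 (52.7% of all genes). Their unstimulated level had a median of 0.16, with 38 of 46 above 0 (49.7% of all genes). Past 1.5-fold was 1 (Clspn, the checkpoint mediator claspin, at 0.59), where 10% of all genes were. With serum their median level was 0.05, with 32 of 46 above 0 (49.7% of all genes).

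Of 77 further mitosis genes, 66 were below 0 in serum ratio on the knockdown array (median -0.14), against 52.7% of all genes, and 41 on the control array (median -0.03), against 53%. Their unstimulated level had a median of 0.25, with 69 of 77 above 0 (49.7% of all genes). Here 5 passed 1.5-fold, where 10% of all genes did, all higher in knockdown cells, and the largest were the kinesin Kifc1 (0.92), Racgap1 of the central spindle (0.79) and the cohesin protector Sgol2 (0.74). With serum the median was 0.10, with 56 of 77 above 0 (49.7% of all genes). There 4 passed, against 11.5% of all genes, all higher, led by Sgol2 (0.90), the spindle pole gene Aspm (0.89) and Racgap1 (0.69). In serum ratio 3 of the 77 passed on each array, against 11.7% of all genes in control and 4.27% in knockdown cells. On the knockdown array the citron kinase gene Cit (-0.93) and Kifc1 (-0.84) were lower with serum, and Cks2, a Cdk1 partner, was higher on both arrays (0.88 in control and 0.60 in knockdown cells). Over 1.5-fold lower with serum on the control array were Psrc1, a microtubule regulator (-0.87), and Fbxo5, the inhibitor Emi1 of the anaphase-promoting complex (-0.67).

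Regulators upstream of the set were counted too. Of 30 G1 cyclins, E2F factors and CDK inhibitors, 4 passed 1.5-fold with serum in control cells, against 11.7% of all genes, and 1 in knockdown cells, against 4.27%. Cdkn1a (p21), an inhibitor of cyclin-dependent kinases, was 7.09-fold higher with serum in control cells (log2 2.83) and 2.10-fold higher in knockdown cells (1.07). Its level in knockdown over control was 0.76 unstimulated and -1.002 with serum. Cdkn2b (p15), another inhibitor, was at -1.23 with serum in control cells, and E2f2, an activating E2F, at -0.71. The stimulated level of E2f2 was 1.005, opposite in direction to that of Cdkn1a. E2f1, an activator of the replication genes, had -0.41 on the knockdown array. The medians of the list were -0.13 and -0.09 for the serum ratios and -0.01 and 0.04 for the levels.

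Of the 13 subunits and kinase of DREAM and MuvB, which include Mybl2, none passed 1.5-fold in any of the 4 comparisons, where 4.27% to 11.7% of all genes did. Dyrk1a, the kinase that assembles DREAM, had the largest control serum ratio (0.47) and unstimulated level (0.49), and Lin37, a MuvB subunit, had a control serum ratio of -0.45 and a stimulated level of 0.46. The median unstimulated level was 0.09, with 10 of 13 above 0 (49.7% of all genes).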

How the data were processed

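The authors deposited Agilent Feature Extraction output (version 10.7.3.1), whose header names mm9 as the genome build. The processed signal that the authors deposited is an intensity, background-subtracted and dye-normalized (linear and LOWESS) array by array, with no scaling between arrays. The authors also deposited a table of log10 ratios for the series, which holds sizes without signs and was used as an alternative with the scanner's sign. The number of columns not mapped to a sample is 0.

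Spots flagged as outliers (239 and 234) were left out, spots of a probe averaged as log2, and the brightest probe used per gene. A ratio was kept when both signals were well above background. Levels between arrays were compared after Aquantile in limma 3.58.1. Calls were at 1.5-fold, and the counts at 1.2-fold, on either side of 0 and above a signal of 1000 were chosen after the data were seen. The members and lists were chosen with earlier results of these data known. All members are named, signals are printed for Mki67, Top2a, Ccnb1, Cdk1, Mcm2 and Pcna by rule and for others after their values were seen, and other lists by at most 3 of their largest values in each comparison (Sesn3, Thy1 and Gas6 were added after their values were seen). The accessions of all 57 probes name the same genes in RefSeq.

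Alternatives were normexp (offset 50) with loess, no dye normalization, outliers kept, all probes averaged, a floor of 50, every signal above 200, the series table, and other scalings between arrays. The steps were tested on simulated data with 200 genes changed 2-fold among 28233, of which 200 were recovered in each channel, with 0 others called. The simulated noise was small beside the 1.5-fold limit and only bright genes were changed, so this outcome was fixed in advance. It checks the calculation and not the error of real arrays or of smaller shifts. The tools were matplotlib 3.10.9, pandas 2.3.3, numpy 2.4.6 and scipy 1.17.1 under Python 3.11.15, and R 4.3.3. The number of arrays limits the precision.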

Additional observations from a re-analysis of the deposited data

How the results depend on the processing

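Of 114 recomputed values (medians of the set, counts past 1.5-fold and counts on one side of 0), 96 moved by less than the spread between spots (0.02, log2) or, for counts, within 1.5 times. Without dye normalization, the median serum log2 ratios became 0.85 (control) and 0.62 (knockdown), 42 and 26 members passed 1.5-fold and 0 were below 0 on either array, and all genes shifted too (medians 0.83 and 0.75). The median unstimulated level was then 0.21 with 1 member past 1.5-fold, and the stimulated one -0.032. Without scaling between arrays, the medians were -0.12 unstimulated and -0.30 with serum, with 12 and 3 members above 0 and 1 past 1.5-fold in each, beside -0.26 for all genes in both. The stimulated median was 0.038 under quantile normalization of single channels, -0.014 under the 75th percentile and -0.026 under the median of probes above background, so its sign is not settled. Relative to the median of all genes, that of the members kept its sign in every setting for the knockdown serum ratio (-0.19 to -0.12) and the unstimulated level (0.14 to 0.17). It took both signs for the control serum ratio (-0.02 to 0.02) and the stimulated level (-0.04 to 0.03). A setting that shifts a whole channel by a constant cannot change these relative values. The 75th percentile, the median of probes above background and no scaling therefore all gave 0.14 unstimulated and -0.04 with serum, and count as 1 check. For the 6 single genes named by rule, 76 recomputed values moved by more than the spread between spots and 152 did not. No paired analysis was possible because each condition has 1 array, and for the same reason no array could be left out.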

Other observations

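Growth arrest genes, which starved fibroblasts express, were listed beside the set. On the control array all 13 measured were below 0 in serum log2 ratio, with a median of -0.45, and 3 passed 1.5-fold (11.7% of all genes did): Gas1, a growth arrest-specific membrane protein (-1.28), Pdgfra, a PDGF receptor (-1.06), and Pmp22, a myelin protein first cloned as an arrest gene (-0.59). On the knockdown array 9 of 13 were below 0 (52.7% of all genes), the median was -0.05 and none passed (4.27% of all genes did), with the largest value at Ccng2, cyclin G2 (0.34). The unstimulated level of Pdgfra (-1.27) and Gas1 (-1.20) was lower in knockdown cells, whereas that of Sesn3, a sestrin, was higher (0.65). In all, 8 of 13 were below 0 and 5 above, and the list's median was -0.10. Past 1.5-fold, 4 were lower and 1 (Sesn3) was higher, where 10% of all genes passed in either direction. With serum the median level was 0.14, 8 of 13 were above 0 and 4 passed (11.5% of all genes did): Ccng2 (0.86), Sesn3 (0.78) and Gas6, a growth arrest-specific ligand (0.62), were higher and Cdkn1c, the inhibitor p57 (-0.62), was lower.

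Of the 12 fibroblast markers measured, 7 were below 0 and 5 above in unstimulated level, and 2 passed 1.5-fold, where 10% of all genes did. The unstimulated level of Col3a1, a fibrillar collagen, was at -1.13 and that of Dcn, the proteoglycan decorin, at -0.97 in knockdown over control cells. Thy1, a surface glycoprotein, was highest at 0.25, and the median was -0.19. With serum the median level was -0.26. The markers' serum log2 ratio on the knockdown array had a median of -0.19, with 11 of 12 below 0 (52.7% of all genes), and on the control array one of -0.26, with 10 of 13 below 0 (53% of all genes).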
